A study of Mus musculus with 6 samples.

Results

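The metallothioneins, their transcription factors and the zinc transporters were followed in single mouse oocytes. The members were every gene on the array with a single symbol of the Mt, Mtf, Slc30a or Slc39a series, which gave 25 genes read by 28 probes, out of 13840 genes with a single symbol. The family was chosen by the rise of Mt1 in these same oocytes, so the Mt1 values below are a description without a test, and the counts of called members are over the others. Of the 25 genes, 13 passed the filter on dim probes (signal-to-noise of 3 or more on every array of at least 1 group) and 12 did not. Mt2, Slc30a2, Slc30a10, Slc39a2 and Slc39a9 had no probe under a single symbol and are not analysed here.

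Mature oocytes labelled as Ago2 knockout (n = 3, called Ago2-deficient) were set against wild-type oocytes at the germinal vesicle (GV) stage (n = 3). Each oocyte was hybridised alone to a chemiluminescent Applied Biosystems array. The Ago2-deficient oocytes came from [Ago2 F/F, Zp3-Cre] females, in which the Zp3 promoter drives Cre in growing oocytes. Ago2 is thereby deleted in the female germ cell and not in the surrounding somatic cells. The study reports that the floxed allele escaped deletion in a few cases, and allows that its knockout may be a hypomorph. Deletion in the arrayed oocytes was not tested here. The wild-type oocytes came from adult females, by a label that places their collection in the oviduct and the removal of cumulus cells with hyaluronidase, and the study's methods give adult females for mature oocytes too. The oviduct is where ovulated, mature oocytes are collected, so that label conflicts with the GV stage, and the stage is used here only as labelled. As labelled, each group had its own genotype and its own stage, and the effects of Ago2 loss and of maturation cannot be told apart here. Nothing in the labels ties an oocyte to an animal, so each p-value reflects the spread among these oocytes alone, which may be technical.

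The arrays of the Ago2-deficient oocytes detected fewer probes and were less alike than those of GV oocytes, although their median unscaled signal was higher (168 to 258 against 93.2 to 116). They detected 14.0% to 20.6% of all probes, against 32.3% to 34.3%, and correlated with each other at r = 0.844 to 0.898 over the 8018 tested probes, against 0.965 to 0.973 between GV arrays. All 13 oocyte markers on the array were detected in GV oocytes, while 9 or 10 were detected in each Ago2-deficient oocyte and Zp2, Figla and Kit in none. Their summed unscaled signal ran from 792007 to 2020717 in Ago2-deficient and from 6113706 to 7106112 in GV oocytes. Calls needed an adjusted p under 0.05 in limma and a fold change over 2. Of the 7915 tested genes 62.2% were called, 17.4% as higher and 44.8% as lower in the Ago2-deficient oocytes. Of the 13 oocyte markers 10 were called lower and none higher, with a median log2 difference of -2.47 in the quantile-normalized values. The median tested gene differed by -1.39 on the log2 scale of the quantile-normalized values, and this median was -3.08 with a common median for all arrays, -1.97 without scaling, -0.36 with cyclic loess and -0.42 after centring each array on its shared probes, those detected on all 6 arrays. It also moved with the filter, to 0.83 over probes detected on all 6 arrays, 0.13 over all probes and -0.14 over probes detected on at least 1 array. Values given below as less the median use the median of the 7915 tested genes under the same scaling and hold for that filter only. The log2 levels are relative to the other genes of the same oocyte.

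Metallothioneins are small, cysteine-rich proteins that bind zinc and copper in the cytosol. Among their genes, Mt1 is switched on by Mtf1, a zinc-finger factor that takes up zinc when the free metal rises. Mtf1 then binds short metal response elements near the start of its target genes, Slc30a1 among them. The Slc39a (ZIP) proteins carry zinc into the cytosol from outside the cell or from organelles, and the Slc30a (ZnT) proteins carry it out of the cytosol. In the mouse, the oocyte takes up zinc as it matures and releases it from cortical vesicles at fertilisation, and Slc39a6 and Slc39a10 are the importers most often named in that uptake.

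The core of the metal response element was searched as TGCACNC and TGCGCNC on both strands, in RefSeq windows (GRCm38.p6) from 250 bases before to 50 bases from the start of each gene. The Mt1 window, on the forward strand of chromosome 8 at chr8:94178839-94179138, held 3 matches, 1 upstream of the RefSeq start and the others just after it. Transcribed bases below are counted from that annotated start, and the start used in these oocytes was not tested. A start past these matches would leave them all upstream of it, and bases beyond the window were not searched. They are shown because Mt1 was the gene that selected the family, with the matched core in capitals and 8 bases on each side.
Mt1, chr8:94179058-94179080, core 23 bases before the start: tcccgctgTGCACACtggcgctc
Mt1, chr8:94179083-94179105, core from transcribed base 3: gggagctcTGCACTCcgcccgaa
Mt1, chr8:94179101-94179123, core from transcribed base 21: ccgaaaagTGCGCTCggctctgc
Slc30a1, the other well-known target of Mtf1 in the family, is on the forward strand of chromosome 1 and held 2 matches, both on the opposite strand to the gene.
Slc30a1, chr1:191906730-191906752, core 43 bases before the start: ggggttccGAGTGCAaagcaaag
Slc30a1, chr1:191906803-191906825, core from transcribed base 31: tccgggccGAGCGCAgtcgccgc
Of the members, 21 had windows that were searched, 27 in all. Member windows on 1 chromosome were left out, whereas the windows of all genes had no such exclusion. Slc30a8, Slc39a4, Slc39a6 and Slc39a14 had no window searched, so nothing is said here of their sequences. At least 1 match lay in 14 of these windows (51.9%), from 13 genes, and in 25.7% of all 32851 windows. At least 3 matches lay in 1.97% of all windows, and among the members Slc30a4 had 3 as well as Mt1. Mtf1, Slc39a1 and Slc39a10 had none in these windows. A match to these letters is a description of the sequence, and whether Mtf1 binds any of them was not tested here.

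Mt1, the main inducible metallothionein, stood far above the GV oocytes in all 3 Ago2-deficient oocytes. At its brighter probe the log2 level was 19.43, 18.64 and 19.66 in Ago2-deficient oocytes and 9.94, 11.21 and 8.39 in GV oocytes, a difference of 9.40 between means of 19.24 ± 0.54 and 9.85 ± 1.41 (SD, n = 3 each). The unscaled signal of that probe ran 361264, 533301 and 643634 against 1757, 4467 and 268. The dimmer probe gave 16.16, 15.48 and 16.15 against 9.06, 9.55 and 8.70, a difference of 6.82 or 113-fold. Both probes were detected on all 6 arrays, and neither had overlapping groups.

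The size of the Mt1 difference at the brighter probe depended on the GV oocytes more than on the Ago2-deficient ones. The GV levels of that probe spanned 8.39 to 11.21, and its difference was 8.67 without the third GV oocyte, the lowest, and 10.08 without the second, the highest. At the dimmer probe it moved only between 6.62 and 7.05 when any oocyte was left out. Under the other scalings the brighter probe differed by 7.50 to 10.53 and the dimmer by 4.71 to 8.48. Less the median of all tested genes, the brighter probe stood at 10.57 to 10.89 under the 5 scalings and the dimmer at 7.78 to 8.84. The probes thus gave different sizes and 1 direction in every setting run.

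Cumulus cells surround the oocyte and are a second cell type that these samples could hold. Of the 14 cumulus and granulosa markers on the array, 2 to 5 were detected in each Ago2-deficient oocyte and 2 to 4 in each GV oocyte. Their summed unscaled signal ran from 12066 to 14029 in Ago2-deficient and from 4964 to 10519 in GV oocytes, and the sum of their quantile-normalized signals from 14522 to 40531 and from 4626 to 6272. Most of the unscaled sum in Ago2-deficient oocytes was the marker Btc, at 9788, 6602 and 7414. Of the 4 markers that were tested, 2 were called higher and 2 lower. The growth factors Btc and Ereg were detected in the Ago2-deficient oocytes alone and passed the filter through them. In the quantile-normalized values Btc was at least 71.2-fold higher there and Ereg at least 24.4-fold. With a common median their log2 differences were smaller, at 4.31 and 3.11, against 6.15 and 4.65 in the quantile-normalized values. With cyclic loess they were larger, at 8.14 and 5.07. The inhibin subunit Inha fell by 2.68 (adjusted p = 0.0204 in limma, not called with cyclic loess, at -0.86) and the nuclear receptor Nr5a2 fell by 3.54 (adjusted p = 0.00932). Both passed the filter through the GV oocytes alone. With no filter on dim probes Nr5a2 was called lower (adjusted p = 0.0249) and Inha was not called (0.0557). Amh, Fshr, Has2 and Tnfaip6, markers of granulosa and expanded cumulus cells, were undetected on every array. Other markers of the list were detected in places. Foxl2 and Gja1 were detected in the second Ago2-deficient oocyte alone, and Cyp11a1 in the third alone. Star was detected in the third GV oocyte alone and Kitl in the first alone. Inhba was detected in 2 GV oocytes and 1 Ago2-deficient oocyte. Of 11 oviduct, stroma and blood markers, 1 (Krt8) was detected in the Ago2-deficient oocytes and 3 or 4 in each GV oocyte, with summed unscaled signals of 104079 to 611588 and 150104 to 165804. Krt8 alone read 100895, 608024 and 146098 in Ago2-deficient oocytes and 145500, 149641 and 163253 in GV oocytes. These sums are therefore nearly all Krt8. Krt8 was called higher (1.61, adjusted p = 0.0109 in limma) but not with a common median (-0.66) or without scaling (0.44). Epcam was called lower (-2.39, adjusted p = 0.00466) but not with cyclic loess (-0.43) or with arrays centred on shared probes (-1.11). The part of other cells in the Mt1 level was not tested.

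**Figure D1:**
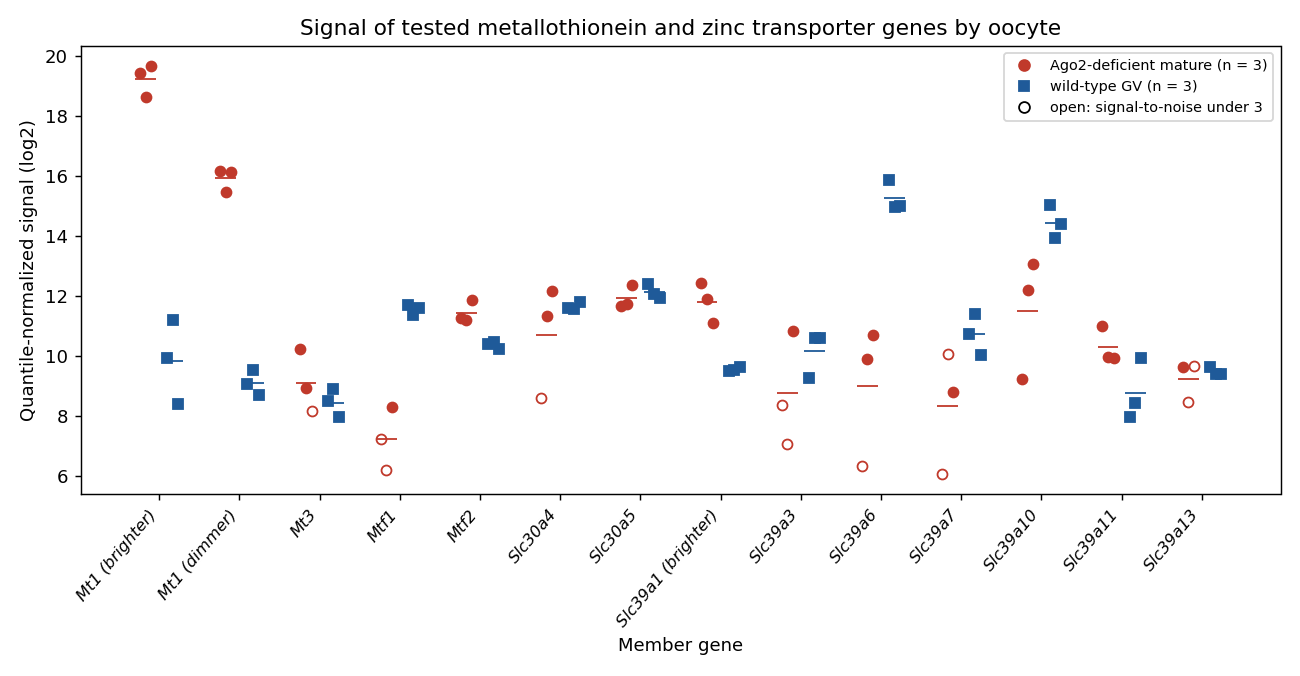
Quantile-normalized signal (log2) of the 13 tested members, 1 point per oocyte, with circles for the Ago2-deficient mature and squares for the wild-type GV oocytes (n = 3 each), short lines at the group means and open points where the signal-to-noise ratio was under 3. Mt1 stands above 15 in the Ago2-deficient oocytes at both probes, whereas Slc39a6 stands near 15 in the GV oocytes and from 6.35 to 10.70 in the Ago2-deficient ones.

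Of the 12 tested members other than Mt1, 2 rose, 3 fell and 7 were not called, so 41.7% were called against 62.2% of all tested genes. Their groups did not overlap in 5 of 12, against 70.4% of all tested genes. Their median difference was -0.60, and that of all tested genes -1.39. The called members were Mtf2 and Slc39a1, which were higher, and Mtf1, Slc39a6 and Slc39a10, which were lower. Mt3, Mtf1, Slc30a4, Slc39a3, Slc39a6, Slc39a7 and Slc39a13 passed the filter through the GV oocytes alone, and no member through the Ago2-deficient oocytes alone. The filter thus favoured members that were high in GV oocytes. With no filter on dim probes Mtf1 and Slc39a6 were still called lower (adjusted p = 0.00259 and 0.00645 in limma).

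Of the other metallothioneins, Mt3 was tested and not called, and Mt4 was not tested. Mt3, known best from brain, read 10.24, 8.95 and 8.17 in Ago2-deficient oocytes and 8.49, 8.89 and 7.96 in GV oocytes. The groups overlapped, with a difference of 0.67 (SE 0.59, 95% confidence interval -0.74 to 2.09, adjusted p = 0.349 in limma). A fall or a 4-fold rise of Mt3 both lie within that interval. The call depended on the scaling, with Mt3 called higher with cyclic loess (1.39, adjusted p = 0.0291) and with arrays centred on shared probes (2.06, adjusted p = 0.0354), and at -0.59 with a common median (adjusted p = 0.324). Less the median of all tested genes it stood at 1.75 to 2.49. Mt4, a metallothionein of stratified epithelia, was detected in the third GV oocyte alone.

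Mtf1, the zinc-sensing activator of Mt1, fell. It read 7.25, 6.19 and 8.31 in Ago2-deficient oocytes and 11.71, 11.37 and 11.60 in GV oocytes, with all Ago2-deficient oocytes below all GV oocytes. The difference was -4.31 (SE 0.56, 95% confidence interval -5.66 to -2.97, adjusted p = 0.00085 in limma). Mtf1 was detected in the third Ago2-deficient oocyte and in neither of the others, so the low side of the fold rests partly on signal under the detection limit. It was called lower under all 5 scalings, from -2.26 with cyclic loess to -6.06 with a common median, and without any single oocyte, from -3.78 to -4.84. Less the median of all tested genes, it stood at -1.90 to -2.98. Mtf1 and Mt1, the activator and its target, thus stood on opposite sides of the GV oocytes.

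Mtf2, which shares its symbol stem with Mtf1 but acts as a Polycomb-like chromatin protein, rose in the quantile-normalized values. It read 11.27, 11.20 and 11.87 in Ago2-deficient oocytes and 10.39, 10.46 and 10.23 in GV oocytes, without overlap. The difference of 1.09 (SE 0.33, adjusted p = 0.0269 in limma) was just past the fold limit. It turned to -1.74 with a common median, where it was called lower (adjusted p = 0.00849), and to -0.64 without scaling, and it was not called without the third Ago2-deficient oocyte (0.88) or without any 1 GV oocyte (adjusted p = 0.0773, 0.0786 and 0.101). Less the median of all tested genes it was above 0 under all 5 scalings, at 1.33 to 2.58.

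Among the importers, 7 of 12 were tested, of which 1 rose, 2 fell and 4 were not called, with a median of -1.39, as for all tested genes. Slc39a6, a plasma membrane importer, fell furthest of the tested members. It read 6.35, 9.92 and 10.70 in Ago2-deficient oocytes and 15.88, 14.98 and 15.00 in GV oocytes. The GV oocytes lay within 1 log2 unit of each other, and the first Ago2-deficient oocyte, in which Slc39a6 was not detected, lay well below the others. The difference was -6.30 (SE 1.11, 95% confidence interval -8.95 to -3.65, adjusted p = 0.00281 in limma), or 78.8-fold. Without that oocyte it was still called, at -4.98, and it was called under all 5 scalings, from -4.80 to -8.48. Less the median of all tested genes it stood at -4.44 to -5.41.

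Slc39a10, the closest relative of Slc39a6 and its partner in a heteromeric importer, was lower as well. It read 9.23, 12.20 and 13.08 in Ago2-deficient oocytes and 15.03, 13.94 and 14.39 in GV oocytes. The groups did not overlap, but the Ago2-deficient oocytes spread over nearly 4 log2 units. The difference was -2.95 (SE 0.98, 95% confidence interval -5.31 to -0.60, adjusted p = 0.0358 in limma), or 7.74-fold. Without the first Ago2-deficient oocyte the difference was -1.82, which was called (adjusted p = 0.0152). The call was lost without the second Ago2-deficient oocyte (adjusted p = 0.0514) and without any 1 GV oocyte (0.117, 0.0714 and 0.0903), where the difference lay between -2.67 and -3.30. Slc39a10 was detected on all 6 arrays and was called lower under all 5 scalings, at -2.25 to -5.71.

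Slc39a1, a plasma membrane importer of most tissues, had 2 probes that ran in opposite directions. The tested probe read 12.43, 11.90 and 11.09 in Ago2-deficient oocytes and 9.51, 9.55 and 9.65 in GV oocytes, a difference of 2.24 (SE 0.42, adjusted p = 0.00364 in limma). The other probe read 6.51, 5.77 and 6.30 against 9.74, 6.81 and 8.63, a difference of -2.20 without a test, since it was detected in 2 GV oocytes and in no Ago2-deficient oocyte. Each probe separated the groups without overlap. The tested probe was called without any single oocyte, at 1.93 to 2.60, but differed by 0.67 without scaling (adjusted p = 0.305) and by -0.43 with a common median. Less the median of all tested genes it stood at 2.64 to 3.80. The direction of Slc39a1 is therefore uncertain between its probes.

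The other 4 tested importers were not called, and in each of them the groups overlapped. Slc39a7, which releases zinc from the endoplasmic reticulum, read 6.07, 10.08 and 8.82 in Ago2-deficient oocytes and 10.73, 11.42 and 10.03 in GV oocytes, a difference of -2.40 (SE 1.01, 95% confidence interval -4.83 to 0.03, adjusted p = 0.0775 in limma). Without the second Ago2-deficient oocyte it was -3.28 (adjusted p = 0.0248). Slc39a3, a plasma membrane importer, read 8.37, 7.06 and 10.85 against 9.28, 10.59 and 10.60, a difference of -1.39 (SE 0.97, adjusted p = 0.249). In both genes 1 Ago2-deficient oocyte reached the GV range and the others lay below it. Without the third Ago2-deficient oocyte Slc39a3 differed by -2.44 (adjusted p = 0.0173). Both were called lower with a common median (Slc39a7 at -4.30, Slc39a3 at -3.16) and without scaling (-3.20 and -2.06). Neither was called with cyclic loess (-0.60 and 0.41) or with arrays centred on shared probes (-1.64 and -0.50). Less the median of all tested genes, Slc39a7 stood at -1.23 to -0.24 and Slc39a3 at -0.09 to 0.77.

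Slc39a11, an importer reported at the Golgi and plasma membrane, had the opposite sign. It read 10.99, 9.97 and 9.94 in Ago2-deficient oocytes and 7.96, 8.43 and 9.95 in GV oocytes, a difference of 1.52 (SE 0.61, adjusted p = 0.0665 in limma). Only the third GV oocyte reached the Ago2-deficient levels, and without it the difference was 2.11 and was called (adjusted p = 0.0215). It was also called with cyclic loess, at 2.58, and with arrays centred on shared probes, at 2.28, and was -0.38 with a common median. Slc39a13, an importer of the secretory pathway, read 9.63, 8.46 and 9.66 against 9.65, 9.42 and 9.40, a difference of -0.24 (SE 0.43, adjusted p = 0.638). Its direction followed the scaling, called lower at -2.03 with a common median and called higher at 1.22 with cyclic loess. Less the median of all tested genes, Slc39a13 stood at 1.04 to 1.58.

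Of the 8 exporters, 2 were tested and neither was called. Slc30a5, which loads zinc into the early secretory pathway, read 11.68, 11.74 and 12.37 in Ago2-deficient oocytes and 12.40, 12.06 and 11.95 in GV oocytes. The difference was -0.20 (SE 0.35, 95% confidence interval -1.04 to 0.64, adjusted p = 0.633 in limma), an interval that leaves room for a 2-fold fall. Slc30a4, an exporter of vesicles known for zinc secretion into milk, read 8.62, 11.35 and 12.16 against 11.60, 11.57 and 11.81, a difference of -0.95 (SE 0.88, adjusted p = 0.377). That difference rested on the first Ago2-deficient oocyte, in which Slc30a4 was not detected, and was 0.09 without it. Both exporters were called lower with a common median (-3.49 and -3.66) and without scaling (-2.39 and -2.56), and differed by 0.31 and 0.26 with cyclic loess. Less the median of all tested genes, Slc30a5 stood at -0.42 to 1.19 and Slc30a4 at -0.59 to 0.62 under the 5 scalings.

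**Figure D2:**
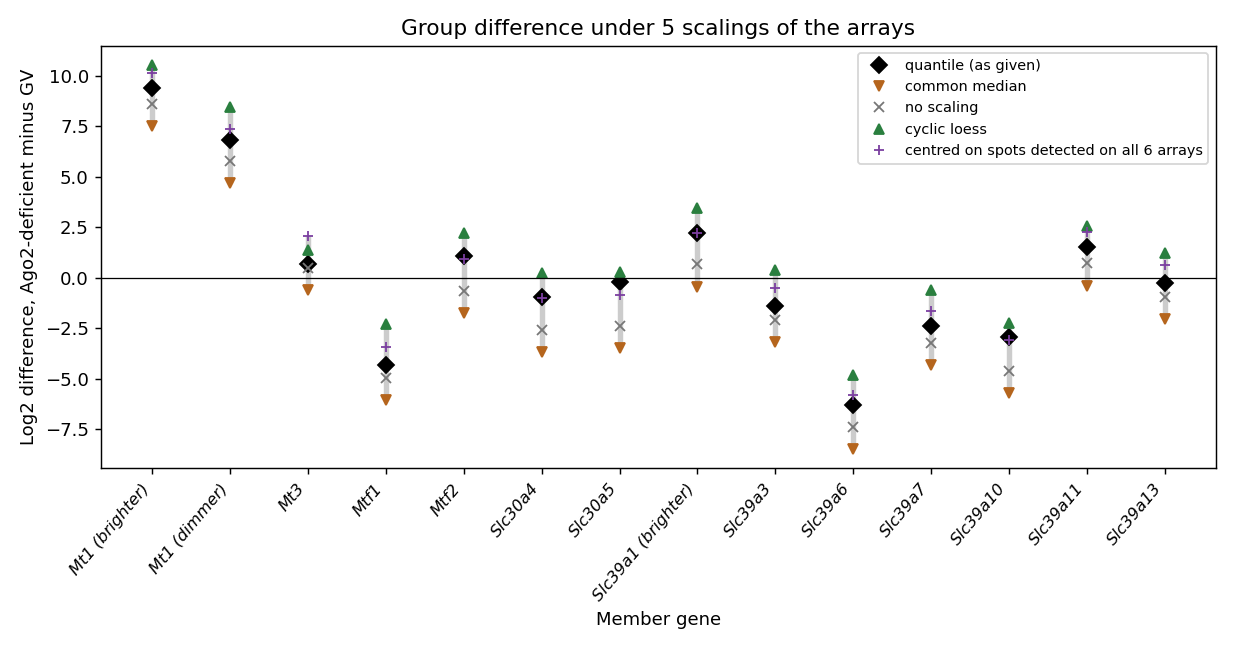
Difference of group means (log2, Ago2-deficient minus GV) of each tested member under 5 scalings of the same 6 arrays. Mtf1, Slc39a6, Slc39a7 and Slc39a10 lie below 0 and Mt1 lies above 0 under every scaling, whereas Mt3, Mtf2, Slc30a4, Slc30a5, Slc39a1, Slc39a3, Slc39a11 and Slc39a13 lie on both sides of 0.

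**Figure D3:**
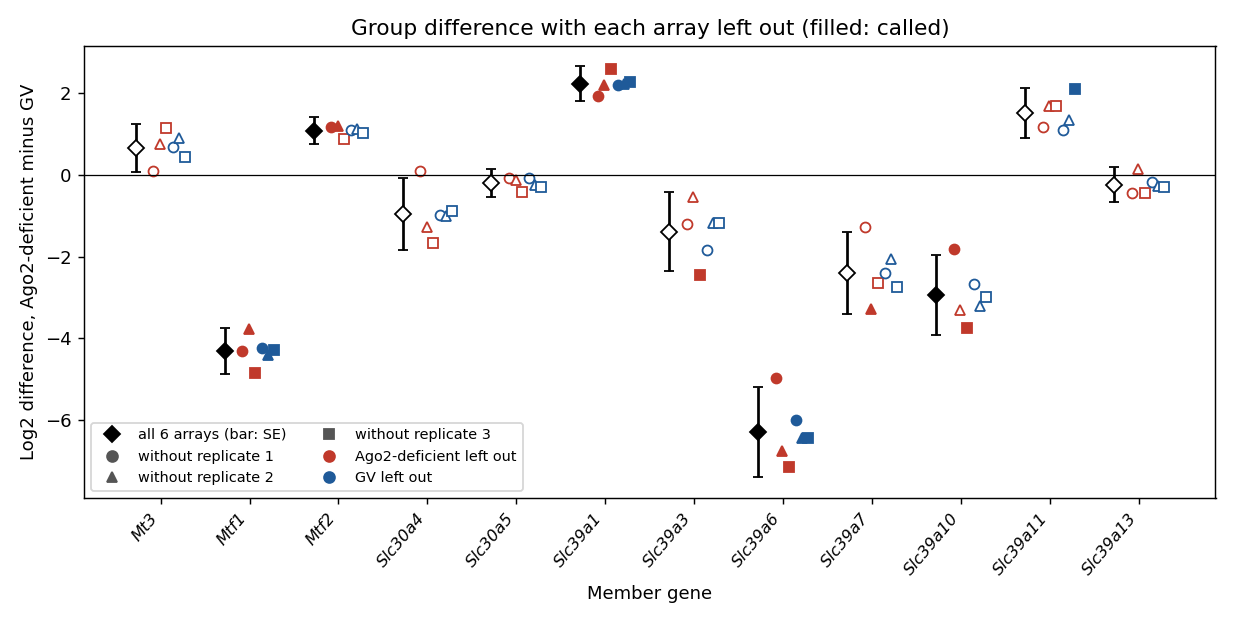
Difference of group means (log2, Ago2-deficient minus GV) of the 12 tested members other than Mt1 with all 6 arrays (diamonds, bars of 1 SE) and with each array left out, where filled symbols are called. Mtf1, Slc39a1 and Slc39a6 stay called throughout, whereas Slc39a10 and Mtf2 lose the call in 4 of the 6 cases and Slc30a4 moves to 0.09 without the first Ago2-deficient oocyte.

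The Ago2-deficient oocytes differed among themselves more than the GV oocytes did for the tested members, with a median SD of 1.05 against 0.35, as they did for all tested genes, with 0.74 against 0.28. The first Ago2-deficient oocyte was the lowest of its group in 5 of the 12 members and in 3 of the 7 importers, and in 45.5% of all tested genes. Those importers were Slc39a6, Slc39a7 and Slc39a10. That array detected 9 of the 25 members, the other Ago2-deficient arrays 10 and 13, and the GV arrays 15, 16 and 14. As shares of the members these were 36.0% to 52.0% and 56.0% to 64.0%.

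The 12 members that were not tested add no direction. Slc30a3, Slc30a6, Slc30a7, Slc39a5 and Slc39a14 were detected on no array. Slc30a1, the plasma membrane exporter that is a known Mtf1 target and whose promoter is shown above, was detected in the first GV oocyte alone, and read 6.56, 7.19 and 7.93 in Ago2-deficient oocytes against 8.23, 6.59 and 7.22 in GV oocytes. These are readings at or near background. Slc30a8 and Slc39a8 were detected in the second GV oocyte alone, Slc30a9, which is numbered with the exporters, in the first Ago2-deficient oocyte alone, and Slc39a12 in 1 oocyte of each group at 1 of its 2 probes. Slc39a4, the intestinal zinc importer, was detected in 2 Ago2-deficient oocytes and 1 GV oocyte, with levels of 7.91, 11.09 and 9.59 against 6.99, 9.10 and 8.06. Slc39a5, although under the detection limit on every array, read 6.77, 7.13 and 6.74 against 8.71, 8.81 and 8.52.

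**Figure D4:**
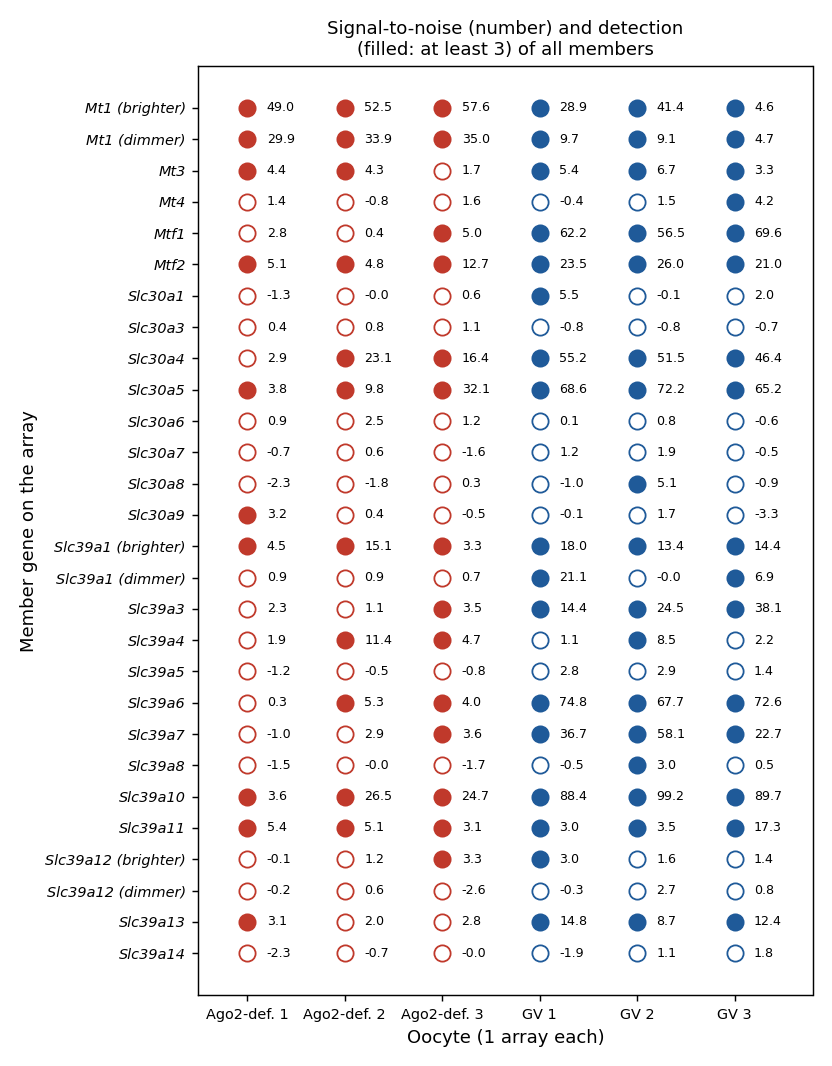
Signal-to-noise ratio (number) of each of the 28 probes of the 25 members on each of the 6 arrays, 1 oocyte per array, filled where the probe was detected, at a ratio of 3 or more. Detection on all 3 GV arrays holds for 13 genes and on all 3 Ago2-deficient arrays for 6, while 5 genes were detected on no array.

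Other genes of metal handling and of the response to metals did not move in 1 direction. Of 25 listed, 19 were on the array and 9 were tested, of which 4 rose, 3 fell and 2 were not called, with a median of 0.43 against -1.39 for all tested genes. Of all tested genes 62.2% were called, 17.4% as higher and 44.8% as lower. The split of the list depended on the scaling, with 1 higher and 4 lower with a common median and 2 higher and 4 lower without scaling. Of all 7915 tested genes, 312 were called higher and 6220 lower with a common median, and 611 and 4774 without scaling. Keap1, the sensor that holds back the oxidative-stress factor Nrf2, read 14.64, 15.08 and 14.56 in Ago2-deficient oocytes and 9.65, 10.16 and 8.47 in GV oocytes, a difference of 5.34 (SE 0.50, adjusted p = 0.000281 in limma). Gclm, a subunit of the enzyme that starts glutathione synthesis, read 16.19, 16.26 and 16.43 against 12.13, 12.94 and 12.68, a difference of 3.71 (SE 0.35, adjusted p = 0.000274). Both stood above all GV oocytes in each Ago2-deficient oocyte. Keap1 was called higher under all 5 scalings, at 2.90 to 6.78, whereas Gclm was not called with a common median, at 0.72 (adjusted p = 0.273). The copper chaperone Atox1 and the ferritin light chain Ftl1 rose by 2.87 and 2.68, but differed by -0.24 and -0.10 with a common median and were not called without scaling.

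The superoxide dismutase Sod1, which carries copper and zinc, was among the genes that fell. It read 7.51, 10.53 and 11.78 in Ago2-deficient oocytes and 16.69, 16.60 and 16.70 in GV oocytes, a difference of -6.73 (SE 1.03, adjusted p = 0.00162 in limma), with the first Ago2-deficient oocyte again lowest. Hmox2, the constitutive haem oxygenase, was undetected in all Ago2-deficient oocytes. In the quantile-normalized values it was at least 17.5-fold lower, a difference of -4.13 (adjusted p = 0.000183 in limma). It was called lower under all 5 scalings, but the difference shrank to -2.40 with cyclic loess and -2.83 with arrays centred on shared probes. With a common median it was -5.49 and without scaling -4.39. Fth1, the ferritin heavy chain, read 12.68, 9.83 and 9.80 against 14.06, 13.48 and 13.66, a difference of -2.96 (SE 0.81, adjusted p = 0.0173). Fth1 lost the call without the second Ago2-deficient oocyte (adjusted p = 0.0519) and without the first or the third GV oocyte (0.0656 and 0.0532). Sod1, Hmox2 and Fth1 passed the filter through the GV oocytes alone. Each was also called lower with no filter on dim probes (adjusted p = 0.00371, 0.000724 and 0.0462). The copper importer Slc31a1 differed by -0.03 (SE 0.33, 95% confidence interval -0.83 to 0.77, adjusted p = 0.95 in limma). It was called lower with a common median (-3.36) and without scaling (-2.26), where the median tested gene differed by -3.08 and -1.97. Hmox1, the inducible haem oxygenase, differed by 0.43 (SE 0.49, 95% confidence interval -0.74 to 1.60, adjusted p = 0.467), and was called higher with arrays centred on shared probes (2.12, adjusted p = 0.0179). It was detected in every GV oocyte but only in the third Ago2-deficient oocyte. The readings were 9.40, 7.73 and 8.84 against 8.10, 8.10 and 8.47, so the difference rests partly on signal under the detection limit.

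Of 5 genes listed as linked to zinc and meiosis, 4 were on the array and 3 were tested. The remaining gene, Fbxo43, had no probe under a single symbol, so nothing is said of it here. Fbxo5 (Emi1), an inhibitor of the anaphase-promoting complex, rose, reading 17.57, 17.59 and 18.21 in Ago2-deficient oocytes and 14.39, 13.49 and 14.76 in GV oocytes. Its difference was 3.58 (SE 0.44, adjusted p = 0.000709 in limma), and 0.90 with a common median, where it was not called (adjusted p = 0.194). Mos, the kinase upstream of the MAP kinase pathway in the oocyte, fell by 2.83 (SE 0.90, adjusted p = 0.0302), with 7.26, 10.55 and 10.50 against 12.14, 12.28 and 12.37. It lost the call without any 1 GV oocyte (adjusted p = 0.0813, 0.0833 and 0.0862). Mos passed the filter through the GV oocytes alone and was not called with no filter on dim probes (adjusted p = 0.077). The vesicular zinc transporter Tmem163 differed by 2.30 (SE 1.34, adjusted p = 0.173, and 0.0258 with the replicate block) and was undetected in the second GV oocyte. The zinc-permeable channel Trpm7 did not pass the filter, with detection in 1 Ago2-deficient and 2 GV oocytes.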

How the data were processed

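Total RNA of single oocytes was amplified, labelled with digoxigenin and hybridised to AB1700 mouse arrays of 33012 probes. The deposited signal intensity had no scaling between arrays and came with a deposited score, the signal-to-noise ratio, and with flag codes whose meaning the sources used here do not give. The log2 values that the authors made by quantile normalization of these 6 arrays were the ones used. No source used here names the scanner software.

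Detection meant a signal-to-noise ratio of 3 or more. The 8018 probes (7915 genes) detected on all 3 arrays of either group went into lmFit and eBayes of limma 3.58.1 (R 4.3.3), with p-values adjusted by Benjamini and Hochberg over all of them. At an unadjusted p under 0.05, 5303 genes passed. The fit was tested on simulated data. A gene with several tested probes was read by the one with the highest mean. A fold given as "at least" sets the detected group against the higher of the dim probe's own signal and the lowest detected signal of each array. For Btc and Hmox2 it equals the plain fold, since the dim probe's own signal was the higher. Such a fold holds for the quantile-normalized values only, and other scalings gave smaller or larger differences. No replicate block was used, since same-numbered oocytes did not deviate together (r = -0.0487, 0.0275 and -0.0339 over 8018 probes). The alternatives were other scalings, filters and variance models, and each oocyte left out. The precision is limited by the 3 arrays per group.

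The members and lists were chosen with earlier results of these data known. Every member on the array is named, with values by oocyte for those tested. Of the other metal-handling genes, up to 4 called genes with the largest difference and 2 uncalled genes with the highest signal are named by rule, while Atox1, Ftl1 and Fth1 were added after their values were seen. Probe symbols came from the platform annotation, and promoter sequences from RefSeq.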

Additional observations from a re-analysis of the deposited data

How the results depend on the processing

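The falls of Mtf1 and Slc39a6 held under all alternatives that tested them. With 2 members called higher and 3 lower as reported, the counts of higher members were 0 with a common median and without scaling, 5 with cyclic loess, and 1 each without a filter on dim probes, with probes detected on at least 1 array, with a trended and robust variance and with the replicate block. Leaving out 1 oocyte gave 1 to 3. Of all 7915 tested genes, 312 were called higher and 6220 lower with a common median, and 611 and 4774 without scaling. With cyclic loess 1955 were called higher and 2510 lower. The counts of lower members, of 12 tested, were 9 with a common median and 7 without scaling. The count was 1 of 5 with probes detected on all 6 arrays only, against 543 of 2497 genes. That filter left 1671 of 4921 calls among all genes, since only 2497 genes were tested, and 4 of 7 in the metal-handling list. All calls were 28.0% higher as reported, 4.78% with a common median, 11.3% without scaling, 43.8% with cyclic loess, 39.1% with arrays centred on shared probes and 67.5% with probes detected on all 6 arrays only. Differences changed sign with a common median for Mt3 (-0.59), Mtf2 (-1.74), Slc39a1 (-0.43) and Slc39a11 (-0.38), without scaling for Mtf2 (-0.64), with cyclic loess for Slc30a4 (0.26), Slc30a5 (0.31), Slc39a3 (0.41) and Slc39a13 (1.22), and with arrays centred on shared probes for Slc39a13 (0.63). Leaving out 1 oocyte moved Slc30a4 between -1.67 and 0.09 and Slc39a13 between -0.45 and 0.15. With the replicate block, Mtf2 (adjusted p = 0.081) and Slc39a10 (adjusted p = 0.0507) lost their calls and no other tested member changed its call. Slc39a10 was also not called with ordinary t-statistics (adjusted p = 0.108), without a filter (0.0887) or with probes detected on at least 1 array (0.0685). The cause of these changes was not tested. Signals under the detection limit leave the low side of Mtf1 and Slc39a6 imprecise.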
